A study of Mus musculus with 15 samples.

Results

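The genes described here are 9 components and receptors of the complement system, *C1qa*, *C1qb*, *C1qc*, *C1ra*, *C1s1*, *C4b*, *C3*, *C3ar1* and *C5ar1*, taken by symbol from a table of 56832 genes. All 9 passed the filter on low counts, as did 17204 genes in all. The RNA came from cultured mesenchymal stromal cells (MSCs) of mouse long bones, on a C57BL/6J background, at 16 weeks of age, from TauT+/+ mice and from TauT-/- mice, which lack the taurine transporter in every cell through a global deletion of *Slc6a6*. The labels give 4 TauT+/+ and 4 TauT-/- libraries from males and 3 TauT+/+ and 4 TauT-/- libraries from females. The cultures were sorted to leave out cells with CD45, a marker of blood cells, Ter119, of red cells, and CD31, of endothelium, and the labels do not give the sort of each library. The comparison asks how the loss of TauT changed the RNA of the cells in these cultures.

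Complement is a cascade of blood and tissue proteins that marks microbes, dead cells and synapses for removal. In the classical pathway C1q, built from the chains A, B and C, binds the target and activates the proteases C1r and C1s, which cut C4 and C2 to form an enzyme that cleaves C3. The fragments C3a and C5a signal through the receptors C3aR1 and C5aR1 on myeloid cells. C1q is made mostly by macrophages and immature dendritic cells, whereas C1r, C1s, C3 and C4 are made by the liver and, locally, by fibroblasts and other stromal cells, so the same pathway is assembled from different cell types.

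The 3 C1q genes and both receptors were read at a higher level in TauT-/- than in TauT+/+ libraries, and *C1ra*, *C1s1* and *C4b* at a lower level, while *C3* had a log2 fold change near 0. None of these 9 differences passed the threshold, an adjusted p of 0.05 over all genes in edgeR's quasi-likelihood test with sex label and genotype in the model. In the same test 0.546% of genes were called higher and 0.750% lower in TauT-/- libraries. An unadjusted p under 0.05 was reached by 6 of the 9 genes, against a background of 23.6% of genes: *C1qa*, *C1qb*, *C1qc* and *C3ar1*, which had higher levels in TauT-/- libraries, and *C1s1* and *C4b*, which had lower ones. DESeq2 called 3 higher (*C1qa*, *C1qb* and *C3ar1*) and 2 lower (*C1s1* and *C4b*), where it called 5.28% and 6.31% of its 18045 genes. limma's voom, with a quality weight estimated for each library, called 3 higher (the same 3 names) and 1 lower (*C1s1*), where it called 3.55% and 4.12% of genes. In that fit the log2 fold change of *C4b* was −1.27, against −2.05 in edgeR. The genotypes overlapped for every one of the 9 genes over the 15 libraries, where 0.692% of genes were higher and 0.436% lower without overlap.

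Several facts about the libraries bear on these values. Male-labelled libraries held 69764291 to 101575071 counts and female-labelled libraries 12761107 to 20781070, so depth and sex label cannot be told apart, but both genotypes were present at each depth. *Slc6a6* itself overlapped between the genotypes, at 592 to 2591 CPM (median 1712) in TauT+/+ and 401 to 1520 CPM (median 747) in TauT-/- libraries, a log2 fold change of −0.97 (edgeR adjusted p = 0.125), so its level did not separate the labels. In 3 libraries, male-labelled TauT+/+ 1, male-labelled TauT-/- 1 and female-labelled TauT+/+ 3, *Xist* and the Y-linked gene *Ddx3y* did not match the labelled sex. Both genes were read in female-labelled TauT+/+ 3 (14.0 and 81.9 CPM) and male-labelled TauT-/- 2 (8.16 and 54.2 CPM). In the other libraries where *Ddx3y* was the higher, *Xist* was at most 0.456 CPM. Whether these libraries hold mixed samples was not tested. The libraries numbered 1 of the 2 sexes were close to each other within each genotype, with a spread over genes of 0.104 (TauT-/-) and 0.115 (TauT+/+) on the log2 scale, where counting alone gives 0.0601 and 0.0627. The next closest pair, male-labelled TauT+/+ 3 and male-labelled TauT-/- 3, had 0.289. The libraries numbered 1 differed by more than counting noise and were kept as separate libraries, but this does not show that they came from separate samples. The male-labelled library of each close pair was also among those that did not match the labelled sex. Without these male-labelled libraries edgeR called 2 genes higher and 0 lower over all genes, and without their female-labelled partners 7 and 0. With all 15 libraries it called 94 and 129. Without the male-labelled ones the log2 fold changes were 1.06 for *C1qb*, 1.65 for *C3ar1*, −1.28 for *C1s1* and −2.18 for *C4b*. Nothing in the labels says that libraries came from separate animals, so p-values measure the spread between these libraries.

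The C1q chains lie side by side on chromosome 4 (GRCm39), all on the minus strand. *C1qb* occupies chr4:136606009-136613511, *C1qc* chr4:136616466-136620376 and *C1qa* chr4:136623223-136626161, each with 3 exons, and the gaps are 2954 and 2846 bases. The 200 bases before the start of each chain's reference transcript are printed because the 3 chains varied together over the libraries. Those of *C3* and *C1ra* are printed as genes that stromal cells are known to make. Their Pearson correlations with the mean of the stromal markers given below were −0.46 and 0.30 over the 15 libraries. The sign for *C3* depended on the libraries used. They are given 5′ to 3′ on the gene's strand from GRCm39. In the C1q sequences capitals mark GAGGAA, a core of the sites of the macrophage factor PU.1, and in *C3* and *C1ra* they mark TTGCNNAA, a form of the site of C/EBP factors, each searched on both strands.
C1qa, chr4:136626162-136626361, minus strand: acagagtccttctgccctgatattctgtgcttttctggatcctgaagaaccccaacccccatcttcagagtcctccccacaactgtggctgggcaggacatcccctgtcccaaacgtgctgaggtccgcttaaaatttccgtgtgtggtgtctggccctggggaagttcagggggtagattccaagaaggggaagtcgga
C1qc, chr4:136620377-136620576, minus strand: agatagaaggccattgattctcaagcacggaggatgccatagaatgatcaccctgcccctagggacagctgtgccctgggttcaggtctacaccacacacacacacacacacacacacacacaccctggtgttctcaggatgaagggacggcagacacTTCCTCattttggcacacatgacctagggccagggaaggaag
C1qb, chr4:136613512-136613711, minus strand: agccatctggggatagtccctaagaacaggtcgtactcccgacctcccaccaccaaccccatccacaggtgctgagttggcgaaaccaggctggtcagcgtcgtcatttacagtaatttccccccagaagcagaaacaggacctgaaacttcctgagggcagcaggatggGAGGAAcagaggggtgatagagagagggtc
C3, chr17:57535156-57535355, minus strand: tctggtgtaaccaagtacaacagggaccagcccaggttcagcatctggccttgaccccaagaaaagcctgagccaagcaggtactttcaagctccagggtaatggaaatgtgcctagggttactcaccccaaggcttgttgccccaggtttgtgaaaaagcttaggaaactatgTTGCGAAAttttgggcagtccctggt
C1ra, chr6:124489164-124489363, plus strand: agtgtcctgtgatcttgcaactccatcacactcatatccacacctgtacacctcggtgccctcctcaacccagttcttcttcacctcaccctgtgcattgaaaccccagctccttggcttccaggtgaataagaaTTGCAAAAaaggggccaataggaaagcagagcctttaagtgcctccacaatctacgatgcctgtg

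GAGGAA was found 30 to 25 bases before the start of *C1qb* and, on the opposite strand, 42 to 37 bases before that of *C1qc*, and it was not found in this window of *C1qa*. It was in 2 of the 9 genes and in 18.8% of 21735 promoters of the same length. TTGCNNAA stood 26 to 19 bases before the start of *C3* and 65 to 58 bases before that of *C1ra*, again 2 of 9 genes, against 7.23% of promoters. The interferon-type motif TTCNNNGAA, which reads the same on both strands, was in 1 of the 9, *C1qa*, 21 to 13 bases before the start, against 6.14% of promoters. The motifs do not overlap each other in these sequences, and a match of letters is not evidence of a bound site.

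The 3 C1q chains were measured at nearly the same CPM (a gene's reads scaled to the TMM-adjusted library total) in every library. *C1qb* had 446, 76.1, 327 and 223 CPM in male-labelled TauT+/+ libraries 1 to 4 and 449, 454 and 341 CPM in female-labelled TauT+/+ libraries 1 to 3. It had 405, 505, 519 and 682 CPM in the 4 male-labelled TauT-/- libraries and 408, 850, 883 and 623 CPM in the 4 female-labelled ones. All 8 TauT-/- libraries were above the TauT+/+ median of 341 CPM, and 6 of the 8 were above the highest TauT+/+ library. Male-labelled TauT+/+ library 2 was far below all others.

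*C1qa* ranged from 80.2 to 512 CPM (median 374) in TauT+/+ and from 439 to 1046 CPM (median 569) in TauT-/- libraries. *C1qc* ranged from 77.9 to 523 CPM (median 345) and from 422 to 968 CPM (median 539). For each of these chains 5 of 8 TauT-/- libraries exceeded the highest TauT+/+ library, and the lowest TauT+/+ value was again in male-labelled library 2. Among male-labelled libraries the genotypes of *C1qa* did not overlap, where 2.24% of all genes were higher and 2.12% lower without overlap.

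The log2 fold changes of the chains were 0.88 (SE 0.305) for *C1qa*, 0.87 (SE 0.294) for *C1qb* and 0.84 (SE 0.305) for *C1qc*, with edgeR adjusted p of 0.109, 0.106 and 0.122. On a linear scale *C1qb* was 1.82-fold higher, with a 95% interval of 0.24 to 1.49 on the log2 scale. The low library 2 mattered for size but not for direction. Without it the log2 fold changes of *C1qa*, *C1qb* and *C1qc* were 0.72, 0.70 and 0.67.

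The chains kept to each other more closely than to genotype. In TauT+/+ libraries the log2 ratio of *C1qa* to *C1qb* was 0.07 ± 0.12 (SD, n = 7) and in TauT-/- libraries 0.07 ± 0.21 (SD, n = 8), although *C1qb* itself varied 11.6-fold over the 15 libraries. The ratio of *C1qc* to *C1qb* was 0.05 ± 0.08 (SD, n = 7) and 0.03 ± 0.12 (SD, n = 8). Female-labelled TauT-/- library 4 had the lowest value of both ratios, −0.37 and −0.18. Pearson correlations of log2 CPM over the 15 libraries, which share their library normalization, were 0.98 for *C1qa* with *C1qb* and 0.99 for *C1qc* with either.

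*C3ar1* encodes the receptor for C3a. It had 112, 18.9, 119 and 56.9 CPM in male-labelled and 117, 119 and 196 CPM in female-labelled TauT+/+ libraries. In TauT-/- libraries it had 124, 137, 195 and 380 CPM in the male-labelled and 144, 282, 312 and 865 CPM in the female-labelled group. All 8 TauT-/- libraries were above the TauT+/+ median of 117 CPM, and 4 were above the highest TauT+/+ library. The male-labelled genotypes did not overlap, where 2.24% of all genes were higher and 2.12% lower without overlap. This separation was narrow, 119 CPM in TauT+/+ library 3 against 124 CPM in TauT-/- library 1, which did not match its labelled sex. The log2 fold change was 1.46 (SE 0.434, edgeR adjusted p = 0.0819), a 2.75-fold higher level and the highest log2 fold change of the 9 genes. Without female-labelled TauT-/- library 4, the highest one, it was 1.16.

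*C5ar1* encodes the receptor for C5a. It ranged from 47.3 to 284 CPM (median 193) in TauT+/+ and from 195 to 427 CPM (median 267) in TauT-/- libraries. All 8 TauT-/- libraries were above the TauT+/+ median, the lowest only narrowly, and 4 were above the highest TauT+/+ value. The log2 fold change was 0.68 (SE 0.330, 95% interval −0.03 to 1.38, edgeR adjusted p = 0.226). Female-labelled TauT-/- library 4, which was highest for *C3ar1*, was lowest in its genotype for *C5ar1*, at 195 CPM.

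**Figure D1:**
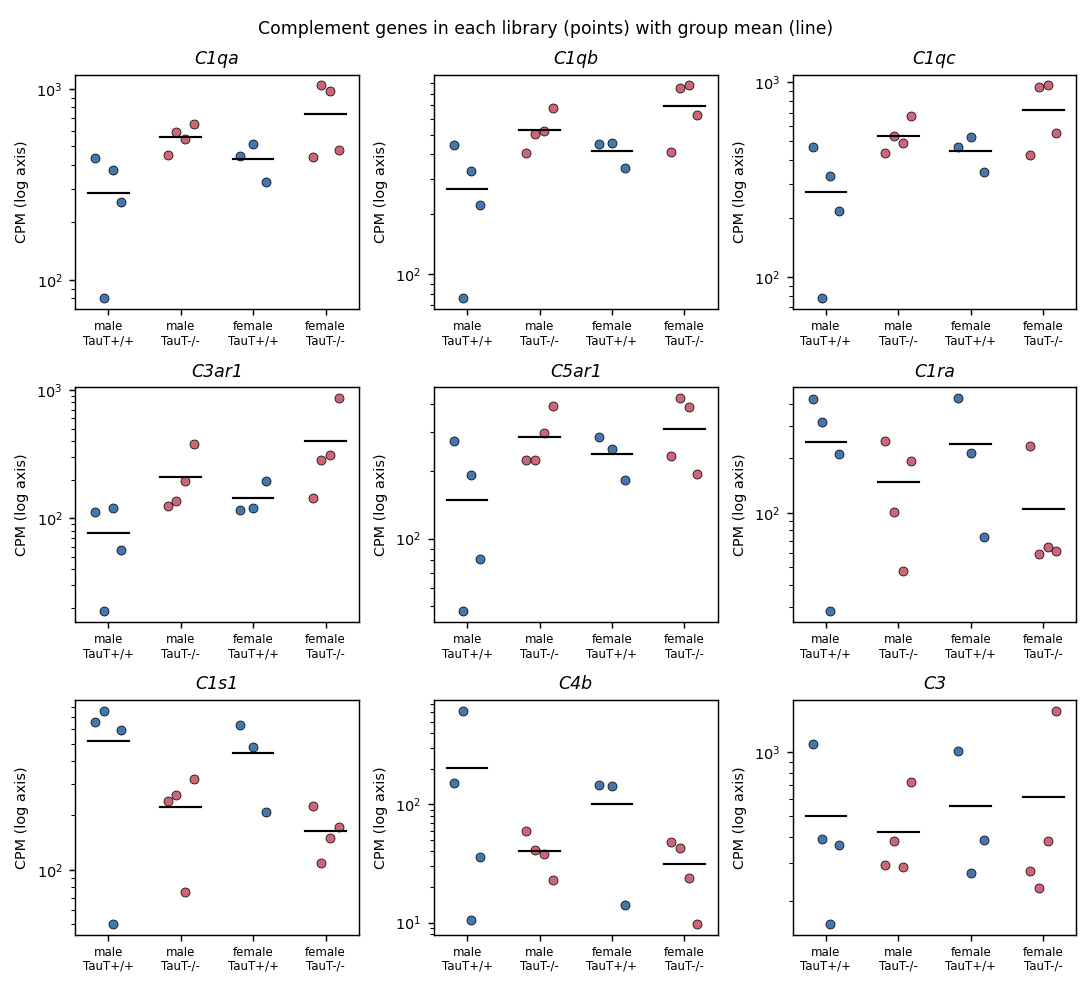
CPM on a log axis for each of the 9 complement genes; points are libraries in the 4 groups (TauT+/+ blue, TauT-/- red) and lines are group means. *C1qa*, *C1qb*, *C1qc*, *C3ar1* and, narrowly, *C5ar1* lie above the TauT+/+ median in all 8 TauT-/- libraries. *C1s1* and *C4b* lie below it in all 8, and *C3* is high in a few libraries of both genotypes.

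The genes of the proteases C1r and C1s, which C1q activates, had lower levels in TauT-/- libraries. *C1s1* had 661, 759, 50.1 and 597 CPM in male-labelled and 636, 480 and 209 CPM in female-labelled TauT+/+ libraries. It had 241, 260, 75.7 and 320 CPM in male-labelled and 224, 109, 149 and 172 CPM in female-labelled TauT-/- libraries. All 8 TauT-/- libraries lay below the TauT+/+ median of 597 CPM, and the overlap came from the TauT+/+ male-labelled library 3 and female-labelled library 3. The log2 fold change was −1.31 (SE 0.448, edgeR adjusted p = 0.108), a 2.48-fold lower level.

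*C1ra* had 428, 319, 28.6 and 213 CPM in male-labelled and 431, 215 and 73.1 CPM in female-labelled TauT+/+ libraries. In TauT-/- libraries it had 250, 101, 47.8 and 194 CPM in the male-labelled and 234, 59.2, 64.6 and 61.8 CPM in the female-labelled group. The genotypes overlapped widely, and the log2 fold change was −0.95 (SE 0.543, 95% interval −2.11 to 0.21, edgeR adjusted p = 0.305). *C1ra* and *C1s1* are neighbours on chromosome 6, transcribed from opposite strands with 6894 bases between them (chr6:124489364-124500402 and chr6:124507297-124559389). Their log2 CPM correlated at 0.91 over the 15 libraries, and the same TauT+/+ library, male-labelled 3, was lowest for each.

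*C4b*, which encodes the complement protein C4, had the lowest log2 fold change of the 9 genes and the widest spread. It had 153, 617, 10.5 and 36.0 CPM in male-labelled and 147, 144 and 13.96 CPM in female-labelled TauT+/+ libraries, against 59.4, 41.0, 37.7 and 23.1 CPM in male-labelled and 48.3, 43.0, 23.9 and 9.75 CPM in female-labelled TauT-/- libraries. All TauT-/- libraries were below the TauT+/+ median of 144 CPM, but 3 TauT+/+ libraries lay within their range. The log2 fold change was −2.05 (SE 0.717, edgeR adjusted p = 0.113), a 4.13-fold lower level, and −1.22 without male-labelled TauT+/+ library 2, which alone held 617 CPM. With same-numbered libraries of the 2 genotypes as a block in the model it was −0.96 (edgeR unadjusted p = 0.168, against 0.0123 without the block).

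A different TauT+/+ library, male-labelled 3, decided the calls of the lower genes. Without it *C1s1* and *C4b* passed the threshold, with log2 fold changes of −1.51 and −2.23 and edgeR adjusted p of 0.0186 and 0.0464. The number of genes called over the whole table also rose in that fit, to 476 higher (2.98%) and 779 lower (4.88%). *C1ra* stayed at an adjusted p of 0.122 in it. The same-numbered TauT-/- library, male-labelled 3, was itself lowest in its genotype for *C1s1* (75.7 CPM) and *C1ra* (47.8 CPM), but not for *C4b*. Deviations of these 2 libraries from their group means correlated at 0.61. That fit leaves out only the TauT+/+ library, so its calls are not free of a deviation that both libraries may share.

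*C3*, the protein on which all complement pathways converge, showed no genotype difference beyond the spread. It had 1098, 390, 156 and 365 CPM in male-labelled and 1017, 270 and 388 CPM in female-labelled TauT+/+ libraries. It had 296, 382, 288 and 723 CPM in male-labelled and 278, 231, 381 and 1565 CPM in female-labelled TauT-/- libraries. The high values were in the close pair of TauT+/+ libraries numbered 1 and in the TauT-/- libraries numbered 4. The log2 fold change was −0.07 (SE 0.498, 95% interval −1.14 to 0.99, edgeR adjusted p = 0.948). Its sign turned with the libraries used, from 0.31 without male-labelled TauT+/+ library 1 to −0.53 without female-labelled TauT-/- library 4, and to 0.36 when the male-labelled library of each close pair was left out.

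**Figure D2:**
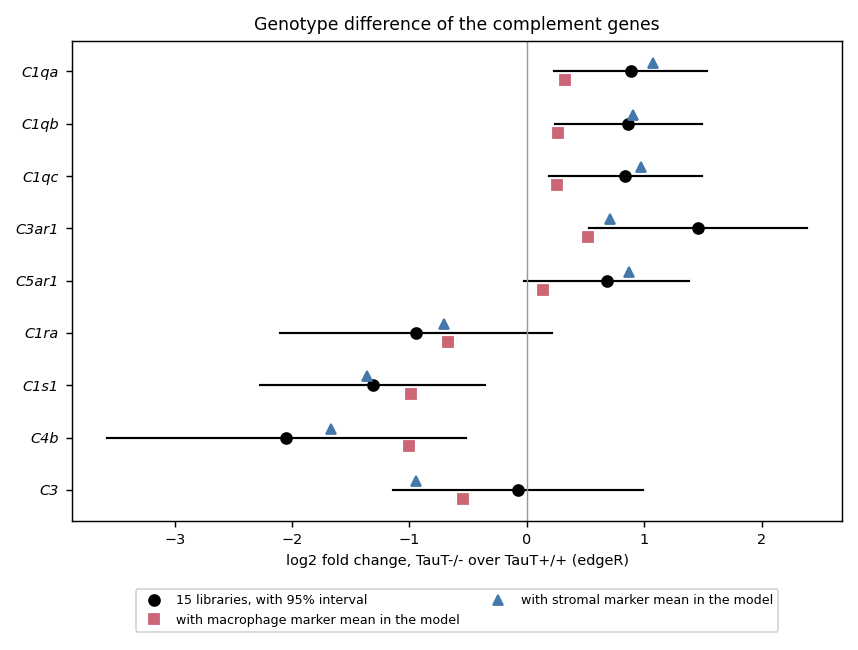
Log2 fold change of TauT-/- over TauT+/+ libraries for the 9 genes (edgeR, black points with 95% intervals, n = 7 and 8 libraries), beside the same value with the mean of the macrophage markers (red squares) or of the stromal markers (blue triangles) in the model. With the macrophage markers in the model the C1q values move from between 0.84 and 0.88 to between 0.26 and 0.33.

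Levels between genes are compared per kilobase of the reference transcript, and the order depends on that choice of length. In TauT+/+ libraries *C1qa* stood highest at 319 ± 133 CPM per kilobase (SD, n = 7), then *C1qc* at 187 ± 84.8, *C1s1* at 166 ± 89.3, *C1qb* at 131 ± 55.6 and *C3* at 102 ± 72.3. *C1ra* followed at 81.8 ± 53.3, *C5ar1* at 73.9 ± 36.6, *C4b* at 29.5 ± 38.9 and *C3ar1* at 21.0 ± 11.1. Each neighbour in this order differed by no more than 1 SD of the higher one, except *C5ar1* over *C4b*. Per kilobase of all annotated exons, *C1s1* (140 CPM per kilobase) stood above *C1qc* (121), and *C1qb* (53.0) below *C3* (102), *C1ra* (76.5) and *C5ar1* (73.1).

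In TauT-/- libraries, by the reference transcript, the C1q chains held the top of the order, *C1qa* at 597 ± 218 CPM per kilobase (SD, n = 8), *C1qc* at 338 ± 119 and *C1qb* at 241 ± 73.1. Then came *C5ar1* at 117 ± 36.3, *C3* at 100.4 ± 87.2, *C1s1* at 66.5 ± 28.1, *C3ar1* at 60.8 ± 48.8, *C1ra* at 42.5 ± 28.6 and *C4b* at 6.58 ± 2.93. Per kilobase of all exons *C1qb* fell to 97.6, below *C5ar1* at 116 and *C3* at 99.9. By either length *C1s1* stood above *C1qb* in TauT+/+ and below both *C1qb* and *C5ar1* in TauT-/- libraries. By the reference transcript, *C1qa* over *C1qc*, *C1qb* over *C5ar1* and *C1ra* over *C4b* were the neighbours that differed by more than 1 SD of the higher one. Per library, the log2 ratio of *C1s1* to *C1qb* in CPM stood at 0.35 ± 1.85 (SD, n = 7 TauT+/+ libraries) and at −1.73 ± 0.93 (SD, n = 8 TauT-/- libraries). It was highest, at 3.31, in male-labelled TauT+/+ library 2, where C1q was low.

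Some members have close copies in the genome. Of the 50-base stretches of their reference transcripts, 34.8% of *C4b* were shared with *C4a*, 48.0% of *C1ra* with *C1rb* and 24.5% of *C1s1* with *C1s2*, so reads from those stretches can be misplaced or dropped. The copies were read at no more than 0.300 CPM per kilobase in the mean of either genotype. The annotated span of *C1s1* also runs across *C1rb* on the opposite strand, and predicted genes overlap *C1qb*, *C1qc*, *C1ra*, *C4b* and *C3*. Reads were counted by strand, and the methods do not say that the library kit keeps it, so reads of overlapping genes on opposite strands could not be told apart here.

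Within the male-labelled libraries alone, in a model with 1 term per group, the log2 fold changes were 0.97 for *C1qa*, 0.98 for *C1qb*, 0.96 for *C1qc*, 1.45 for *C3ar1* and 0.94 for *C5ar1*, and −0.74 for *C1ra*, −1.21 for *C1s1*, −2.34 for *C4b* and −0.25 for *C3*. Within the female-labelled libraries they were 0.78, 0.74, 0.70, 1.48 and 0.38 for the first 5 and −1.19, −1.43, −1.70 and 0.14 for the last 4, in the same order. Every gene but *C3* had the same sign under both labels. The labels are not independent sets, because each close pair of libraries numbered 1 has a library under each label. In addition, 3 libraries did not match their labelled sex. No gene of the table passed the threshold within either label (1483 and 2518 genes had an unadjusted p under 0.05), nor for the difference between the labels (242 genes), where the adjusted p was 0.99988 for all 9. Among female-labelled libraries 0 of the 9 genes separated the genotypes, where 6.29% of all genes were higher and 8.20% lower without overlap.

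The genes that were higher in TauT-/- libraries were read together with macrophage genes. Of 14 macrophage markers 13 had a higher level in TauT-/- libraries and *Aif1* a lower one, with a median log2 fold change of 0.89 against −0.02 over all genes. Only *Cd68*, a lysosomal protein of macrophages, passed the threshold (1.46, edgeR adjusted p = 0.0445), and this call was not stable. It was lost with 12 or 13 libraries, with no filter, without the sex term, and on omission of any of 12 of the 15 libraries (edgeR adjusted p over the 15 omissions from 0.0275 to 0.107). *Csf1r*, the receptor for macrophage colony-stimulating factor, *Adgre1*, which encodes F4/80, and *Ptprc*, which encodes CD45, had log2 fold changes of 0.88, 0.98 and 0.91 with adjusted p of 0.170, 0.387 and 0.129. Although CD45+ cells were to be removed, *Ptprc* was read in all 15 libraries, at 27.9 to 370 CPM.

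The summed level of the 14 markers was 1188 to 8698 CPM (median 6922) in TauT+/+ and 5346 to 19015 CPM (median 12901) in TauT-/- libraries. Their mean log2 CPM correlated over the 15 libraries at 0.95 (Spearman 0.85) with *C1qb*, 0.93 (0.81) with *C3ar1* and 0.87 (0.61) with *C5ar1*. For *C1s1* the correlation was −0.52 (−0.53), for *C4b* −0.62 (−0.48) and for *C3* 0.22 (0.18). Without the libraries farthest from the median of the markers these became 0.80, 0.86, 0.42, −0.23, −0.38 and 0.35, so those of *C5ar1* and *C1s1* rested largely on 2 libraries. For *C1qa* and *C1qc* the correlations were 0.89 (0.71) and 0.93 (0.83), and 0.61 and 0.70 without those libraries. Within TauT-/- libraries they were 0.58 for *C1qa*, 0.83 for *C1qb*, 0.69 for *C1qc*, 0.86 for *C3ar1* and 0.36 for *C5ar1*. Within TauT+/+ libraries they were 0.95, 0.97, 0.96, 0.98 and 0.96, in the same order. In bulk RNA, more cells of a type and more RNA per cell cannot be told apart.

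**Figure D3:**
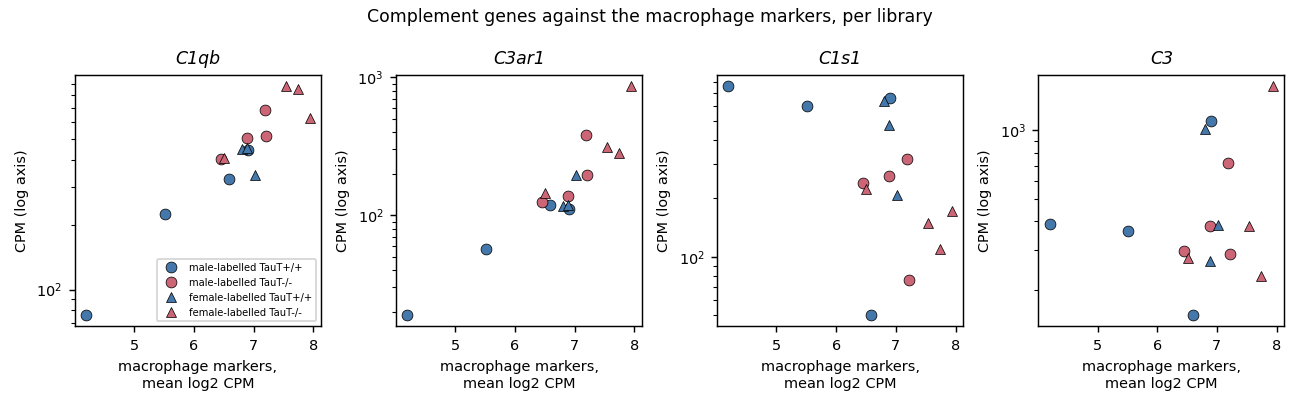
CPM (log axis) of *C1qb*, *C3ar1*, *C1s1* and *C3* against the mean log2 CPM of 14 macrophage markers; each point is 1 of 15 libraries, circles male-labelled and triangles female-labelled, TauT+/+ blue and TauT-/- red. *C1qb* and *C3ar1* rise along the marker axis (Pearson 0.95 and 0.93), *C1s1* runs the other way (−0.52) and *C3* shows little relation (0.22).

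On average the ratio of C1q to *Csf1r* within a library was alike in the genotypes, but it varied more among TauT-/- libraries. The log2 ratio of *C1qb* to *Csf1r* stood at −0.58 ± 0.17 (SD, n = 7 TauT+/+ libraries) and −0.53 ± 0.48 (SD, n = 8 TauT-/- libraries), a difference of 0.05. For *C5ar1* to *Csf1r* the values were −1.44 ± 0.13 and −1.56 ± 0.67. *C3ar1* to *Csf1r* stood at −2.30 ± 0.43 and −1.77 ± 0.45, a difference of 0.53. Female-labelled TauT-/- library 4 had the lowest ratio of C1q and *C5ar1* to *Csf1r* (−1.37 for *C1qb* and −3.05 for *C5ar1*) and the highest of *C3ar1* (−0.90).

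With the mean of the macrophage markers as a term in the model, the log2 fold changes were 0.33 for *C1qa*, 0.27 for *C1qb*, 0.26 for *C1qc*, 0.52 for *C3ar1* and 0.14 for *C5ar1*. Those of the lower genes were −0.67 for *C1ra*, −0.99 for *C1s1* and −1.01 for *C4b*. With *Csf1r* alone as the term, *C1qb* stood at 0.34 and *C1s1* at −1.15. No gene of the table was called by edgeR in either fit (2098 and 2241 genes had an unadjusted p under 0.05), and markers that differ between the genotypes take up part of the genotype difference by construction.

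Of 12 stromal markers 9 had lower levels in TauT-/- libraries, with a median log2 fold change of −0.46 and 0 called by edgeR (2 lower and 1 higher at an unadjusted p under 0.05). DESeq2 called 1 of them lower. Their sum was 27926 to 47204 CPM (median 31649) in TauT+/+ and 6196 to 40339 CPM (median 20508) in TauT-/- libraries, lowest in female-labelled TauT-/- library 4. With their mean in the model, chosen after the data were seen, *C1s1* stood at −1.36, *C4b* at −1.67, *C1qb* at 0.91, *C3ar1* at 0.71 and *C3* at −0.95. The correlation of the stromal mean was 0.24 (Spearman 0.39) with *C1s1*, 0.52 (0.48) with *C4b* and −0.46 (−0.06) with *C3*. Without the libraries farthest from the median it was 0.45, 0.35 and 0.37, so the sign for *C3* rested on 2 libraries. Whether the share of macrophages or stromal cells accounts for the complement values was not tested.

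Markers of hepatocytes, B cells and red cells were at or near 0, and those of other cell types were low but read. Of 4 hepatocyte markers, *Alb* reached 1 count in any library, *Serpina1a* was at 0 in all and the summed level was at most 2.65 CPM. B cell markers summed to at most 0.104 CPM, T cell markers to 6.94 CPM and erythroid markers to 0.576 CPM. Neutrophil markers summed to at most 7.28 CPM in TauT+/+ and 49.8 CPM in TauT-/- libraries, the latter from *S100a8*, with *Ly6g* at no more than 8 counts. Endothelial markers summed to 1.33 to 8.89 CPM in TauT+/+ and 7.32 to 36.7 CPM in TauT-/- libraries, in the latter mostly *Kdr*. Of these markers 0 were called by edgeR and 1 was called higher by DESeq2. *Pecam1*, which encodes CD31, stood at 6.03 CPM in female-labelled TauT+/+ library 3, where *Kdr* had 1.24 CPM. It reached 6.46 CPM in female-labelled TauT-/- library 4.

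The rest of the pathway was read through 46 further genes, of which 30 passed the filter on low counts. Of these, 11 were higher and 19 lower in TauT-/- libraries, with a median log2 fold change of −0.29. edgeR called 0 in either direction. At its unadjusted p under 0.05, reached by 23.6% of all genes, 6 were higher and 6 lower. At the DESeq2 threshold 4 were higher (*Fcna*, *Itgam*, *Itgb2* and *C1qbp*) and 4 lower (*Masp2*, *Cfd*, *Cd46* and *Cd59a*), where it called 5.28% and 6.31% of its genes. These names were chosen after their values were seen. *Masp2*, *Cfd* and *Cd46* were read at low levels, with means of 0.242, 0.668 and 2.47 CPM in TauT+/+ libraries. In TauT-/- libraries the means were 0.0495, 0.0657 and 1.01 CPM.

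Genes listed as receptors had the same sign as *C3ar1* and *C5ar1*. All 6 further ones tested had higher levels in TauT-/- libraries, with a median log2 fold change of 0.94, and 0 called by edgeR against 3 by DESeq2. The 6 and the 3 include *C1qbp*, at a log2 fold change of 0.49 (edgeR adjusted p = 0.0937). It varied 2.74-fold over the 15 libraries, where *Itgam* varied 17.8-fold. *Itgam* and *Itgb2*, the chains of complement receptor 3, had log2 fold changes of 1.19 and 0.96 (edgeR adjusted p = 0.0814 and 0.118). *Itgam* ranged from 21.3 to 136 CPM (median 118) in TauT+/+ and from 132 to 381 CPM (median 238) in TauT-/- libraries, where 7 of 8 were above the highest TauT+/+ library. *Cd93*, a glycoprotein of myeloid and endothelial cells, had 0.53 (adjusted p = 0.375).

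Soluble regulators and the further genes of the C4, C2, C3 and alternative pathway group had mostly lower levels in TauT-/- libraries, 2 of 3 and 4 of 5. The 4 lower genes of the second group were each read at no more than 2.16 CPM on average. *Serping1*, the inhibitor of C1r and C1s, was the most abundant of the further genes, at 210 to 3460 CPM (median 1309) in TauT+/+ and 132 to 1854 CPM (median 584) in TauT-/- libraries, a log2 fold change of −1.30 (edgeR adjusted p = 0.221). *Clu*, or clusterin, had −1.02 (edgeR adjusted p = 0.442), and *C4bp*, a cofactor for the cleavage of C4b, was read at 0 to 6.93 CPM with an adjusted p of 0.419. *C2*, the partner of C4, had −1.33 (adjusted p = 0.149) at 2.16 CPM on average, while *Cfp*, or properdin, a stabilizer made by myeloid cells, had 0.56 (adjusted p = 0.280) at 237 CPM. *C4a* was read at 1.46 CPM on average (−0.27, adjusted p = 0.722).

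Among lectin pathway genes *Colec12*, a scavenger receptor, had a log2 fold change of 0.32 (edgeR adjusted p = 0.473) and *Masp1*, a protease of the pathway, one of −0.68 (adjusted p = 0.154). *Fcna*, the soluble recognition protein ficolin A, had 1.57 to 11.0 CPM in TauT+/+ and 4.61 to 34.2 CPM in TauT-/- libraries, with 6 of 8 above the highest TauT+/+ value and a log2 fold change of 1.56 (adjusted p = 0.0586). Membrane regulators were 6 of 7 lower. *Cd59a*, which blocks the membrane attack complex, had −0.86 (adjusted p = 0.0738), with 7 of 8 TauT-/- libraries below the lowest TauT+/+ library, and *Cr1l* and *Csmd1* had −0.11 and 0.13 (adjusted p = 0.606 and 0.934).

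Terminal components were mostly below the filter. Of 7 such genes only *C8g* passed the filter, at 1.52 CPM on average (log2 fold change −1.13, edgeR adjusted p = 0.212), and *Hc*, which encodes C5, reached 0.148 CPM at most. *C7* and *C8b* had 0 counts in all 15 libraries. The mannose-binding lectins *Mbl1* and *Mbl2* reached 2 counts and 1 count, and *Vsig4* and *Cr2*, receptors for C3 fragments, 2 counts and 1 count.

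**Figure D4:**
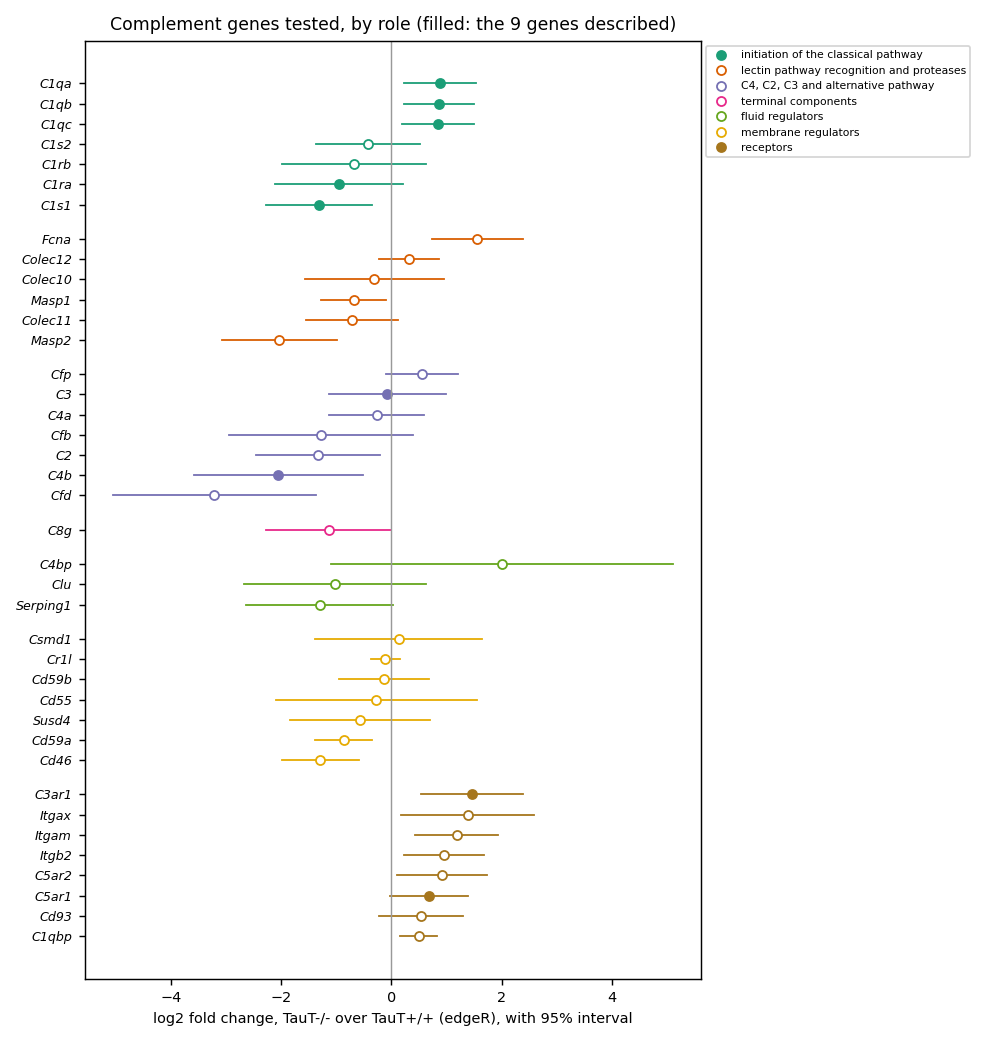
Log2 fold change of TauT-/- over TauT+/+ libraries (edgeR, with 95% intervals) for the 9 complement genes (filled) and 30 further genes of the pathway (open), ordered by role. All 8 genes listed as receptors lie to the right of 0, while 6 of 7 membrane regulators and 2 of 3 fluid regulators lie to the left, and 0 of these genes passed the adjusted threshold.

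The genes outside the set whose log2 CPM ran most like *C1qb* over the 15 libraries were *Hhex*, *Evi2a*, *Fcgr3*, *Arhgap30* and *Nrros*, with Pearson correlations of 0.98 to 0.99. *Fcgr3* encodes a low-affinity Fc receptor of myeloid cells. For *C1s1* they were *Tap2*, *Ginm1*, *Ifih1*, *Foxo4* and *Uba7* (0.93 to 0.95), of which *Tap2* is a peptide transporter of antigen presentation and *Ifih1* a sensor of viral RNA, both known as interferon-induced. For *C3* they were *Taf4*, *Mllt10*, *Nudt13*, *Rnpepl1* and *Mturn* (0.88 to 0.92). These are descriptions over the same 15 libraries, and by rank correlation 1, 2 and 0 of the 5 names were kept for *C1qb*, *C1s1* and *C3*.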

How the data were processed

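MSC cultures were profiled by bulk RNA sequencing of amplified cDNA. The authors filtered reads with fastp 0.23.1, mapped them with STAR 2.7.9a to GRCm39 with a GENCODE annotation and assigned them to genes with featureCounts of Subread 2.0.1, strand setting 2. The authors deposited the raw counts, whole numbers of reads for each gene. Every column was matched to 1 labelled sample. Differences were tested by edgeR 4.0.16 in R 4.3.3 (TMM, filterByExpr, quasi-likelihood test, sex label and genotype as terms), with Benjamini-Hochberg adjustment over 17204 genes. The biological coefficient of variation was 0.482. DESeq2 1.42.0 and limma 3.58.1 (voom with library quality weights) were alternatives, besides other normalizations, filters, terms and library subsets. Log2 CPM used a prior count of 0.5, and ratios a pseudocount of 0.5 CPM. The scripts were tested on simulated counts. Positions, transcript lengths and sequences come from a later GENCODE annotation of GRCm39, and 200 bases were taken before the start of each reference transcript. Complement genes and cell markers were listed by hand, and the members and lists were chosen with earlier results of these data known. The further genes named are those called by edgeR or otherwise the 3 with the highest mean CPM in each role group, the defining macrophage markers, *Slc6a6*, and the 5 genes best correlated with each of *C1qb*, *C3* and *C1s1*. Replicate numbers were not taken to pair the samples. A further gene of the pathway is not reported here.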

Additional observations from a re-analysis of the deposited data

Results flagged for a closer look

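Among the 27 combinations of gene and group of 4 libraries, a test of gaps (Dixon, 95% level) would mark about 1.35 by chance, and it marked 2. *C1ra* in female-labelled TauT-/- library 1 stood at 234 CPM above the other 3 libraries of its group, with a gap of 0.969 of the group's range. This library belongs to the close pair of TauT-/- libraries numbered 1, and its male-labelled counterpart had 250 CPM. *C3* in female-labelled TauT-/- library 4 stood at 1565 CPM, with a gap of 0.887 of the range, in the library with the highest macrophage sum (19015 CPM) and the lowest stromal sum (6196 CPM). The part of cell makeup in either value was not tested.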

How the results depend on the processing

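With edgeR 0 of the 9 complement genes were called in either direction, while DESeq2 called 3 higher and 2 lower and voom 3 higher and 1 lower. Leaving out 1 library gave 0 to 0 higher and 0 to 2 lower. Of the further pathway genes DESeq2 called 4 higher and 4 lower, voom 2 higher and 4 lower, the filter of at least 10 counts in every library 1 higher, and the model without a sex term 1 lower, and leaving out 1 library gave 0 to 2 higher and 0 to 3 lower. *C3* turned positive, at 0.18 in female-labelled libraries alone, 0.36 and 0.28 with 13 libraries, 0.33 with 12 and 0.88 with 10, and ranged from −0.53 to 0.31 when 1 library was left out. *Adgre1* turned negative, at −0.79 with *Csf1r* and −0.26 with the stromal mean in the model. No other direction among the 9 genes turned under any alternative tried. The cause was not tested. Deviations from the group means correlated between same-numbered libraries of the 2 genotypes, from −0.03 to 0.61. The correlation was over 0.1 in 5 of 7 pairs and in all 4 male-labelled ones. As it was not over 0.1 in every pair and the labels state no pairing, the main model holds no pair term. Whether same-numbered libraries share a batch was not tested. With the replicate block, *C1qb* stood at 0.99, *C1s1* at −1.08 and *C4b* at −0.96 (edgeR unadjusted p = 0.168), and 82 genes were called higher and 177 lower in place of 94 and 129. Female-labelled libraries hold fewer counts, which widens the error of low genes.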
